A study of Homo sapiens with 6 samples.

Results

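The 10 genes described here are the D cyclins CCND1, CCND2 and CCND3, the E cyclins CCNE1 and CCNE2, the activators E2F1, E2F2 and E2F3, and the atypical factors E2F7 and E2F8. They were taken by name, through their Ensembl identifiers, from the 58051 genes counted in A172, an established human glioblastoma cell line. Stable cells carried a lentiviral GFP construct, as control, or a lentiviral RBFOX1 construct, both in the pLX317 vector. RBFOX1 is an RNA-binding protein that recognises the word TGCATG. Each group had 3 libraries of rRNA-depleted total RNA, described in the methods of the study as biological replicates. Whether the cells were clonal, and how long they were cultured before harvest, is not given in the sources used here. Nor do they say whether the replicates were separate transductions or separate cultures of a single line. If they were cultures, the p-values below measure the spread between cultures only.

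Progression from G1 into S phase is driven by D cyclins, which activate CDK4 and CDK6, and by E cyclins, which activate CDK2. These kinases phosphorylate the RB family of pocket proteins and release E2F transcription factors, which bind DNA with a DP partner. E2F1, E2F2 and E2F3 activate genes for DNA synthesis and for cell cycle entry, whereas the atypical factors E2F7 and E2F8 repress the same kind of gene without DP or RB and are themselves E2F targets. D-type cyclins, CDK4 and CDK6 are altered in some glioblastomas.

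The libraries held 7433414 to 23249221 counts on genes. RBFOX1 had 4, 0 and 1 counts in the GFP libraries and 10276, 16467 and 21451 in the RBFOX1 libraries. GFP replicate 1, the deepest library, stood apart from the other GFP replicates, with chi-square values of 11.1 and 11.4 per degree of freedom against them, whereas the remaining pairs of replicates lay between 1.76 and 3.41. The fold changes of the members, the counts of calls in each list and the summed levels of the families were also computed without it, but not the fold changes of single genes outside the members or the medians of the lists. Of the 5 markers set for the line, VIM, NES and CD44 were abundant, but the astrocyte marker GFAP had 1 to 4 counts a library and S100B at most 2. The sum of all 5 was 76015 to 77645 normalized counts in GFP and 50211 to 50979 in RBFOX1 libraries, with VIM (log2 ratio -0.65) and CD44 (-0.90) lower and NES higher (0.60, adjusted p 6.10e-09). Summed epithelial markers had 8749 to 9014 normalized counts in GFP and 32338 to 33674 in RBFOX1 libraries, and 3 of the 4 passed the test as higher (KRT8, KRT18 and CDH1, the last with 0 to 1 counts in GFP and 3 to 5 in RBFOX1 libraries), while EPCAM had 6 to 20 counts. Summed endothelial markers (PECAM1, CDH5, VWF) went from 10.3 to 12.8 up to 95.9 to 109 normalized counts, with all 3 higher. Blood markers went from 12.8 to 25.5 up to 52.6 to 68.5 through PTPRC, with CD68 at 1 to 4 counts and HBB at 0 throughout. The part of these markers in the results was not tested.

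The promoters of the E2F genes are shown first, because E2F factors regulate the genes of their own family and because these genes moved in different directions. RefSeq (GRCh38.p14) gave windows from 250 bases before to 50 bases after the transcription start for 6 members, namely CCND3 (3 starts), CCNE1, E2F1, E2F2, E2F3 (2 starts) and E2F7. Each was searched on both strands for the E2F words TTTGGCGC, TTTCGCGC, TTTGCCGC and TTTCCCGC. Matches are in capitals below, and all sequences run 5′ to 3′ on the strand of the gene. E2F1 lies at chr20:33686336-33686635 (minus strand), E2F2 at chr1:23531184-23531483 (minus strand), the first start of E2F3 at chr6:20401629-20401928 (plus strand) and E2F7 at chr12:77065520-77065819 (minus strand).
E2F1: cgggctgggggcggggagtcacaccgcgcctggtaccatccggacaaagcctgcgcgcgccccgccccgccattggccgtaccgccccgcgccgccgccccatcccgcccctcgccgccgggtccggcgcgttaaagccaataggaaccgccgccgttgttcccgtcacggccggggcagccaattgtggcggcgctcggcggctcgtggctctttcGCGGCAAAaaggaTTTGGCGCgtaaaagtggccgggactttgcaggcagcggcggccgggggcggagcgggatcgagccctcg
E2F2: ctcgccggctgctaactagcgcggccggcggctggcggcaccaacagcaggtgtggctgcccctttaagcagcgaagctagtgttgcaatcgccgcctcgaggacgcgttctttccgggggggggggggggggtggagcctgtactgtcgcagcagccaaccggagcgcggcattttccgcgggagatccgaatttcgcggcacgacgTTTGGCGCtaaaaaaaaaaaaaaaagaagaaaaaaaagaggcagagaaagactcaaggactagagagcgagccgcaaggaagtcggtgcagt
E2F3: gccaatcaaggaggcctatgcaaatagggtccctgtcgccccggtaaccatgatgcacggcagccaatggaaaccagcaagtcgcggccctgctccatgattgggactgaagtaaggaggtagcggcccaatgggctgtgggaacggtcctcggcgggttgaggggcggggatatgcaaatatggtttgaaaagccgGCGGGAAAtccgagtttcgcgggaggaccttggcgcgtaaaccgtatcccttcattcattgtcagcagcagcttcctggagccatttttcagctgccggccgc
E2F7: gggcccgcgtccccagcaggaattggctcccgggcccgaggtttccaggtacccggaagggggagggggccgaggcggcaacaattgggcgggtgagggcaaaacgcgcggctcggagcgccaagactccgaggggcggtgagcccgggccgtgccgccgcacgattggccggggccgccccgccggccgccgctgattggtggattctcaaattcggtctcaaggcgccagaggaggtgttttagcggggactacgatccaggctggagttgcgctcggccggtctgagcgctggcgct
In E2F1 the matches began 33 and 20 bases before the transcription start, in E2F2 a single match began 42 bases before it, and in E2F3 a single match began 53 bases before it. The windows of E2F7, CCNE1, CCND3 and the second start of E2F3 held none of these letters, which says nothing about binding outside the window or to other words. At least 1 E2F word was present in 6.32% of the 12625 genes tested for expression that had a promoter window, and in 3.31% of all 35116 windows.

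**Figure D1:**
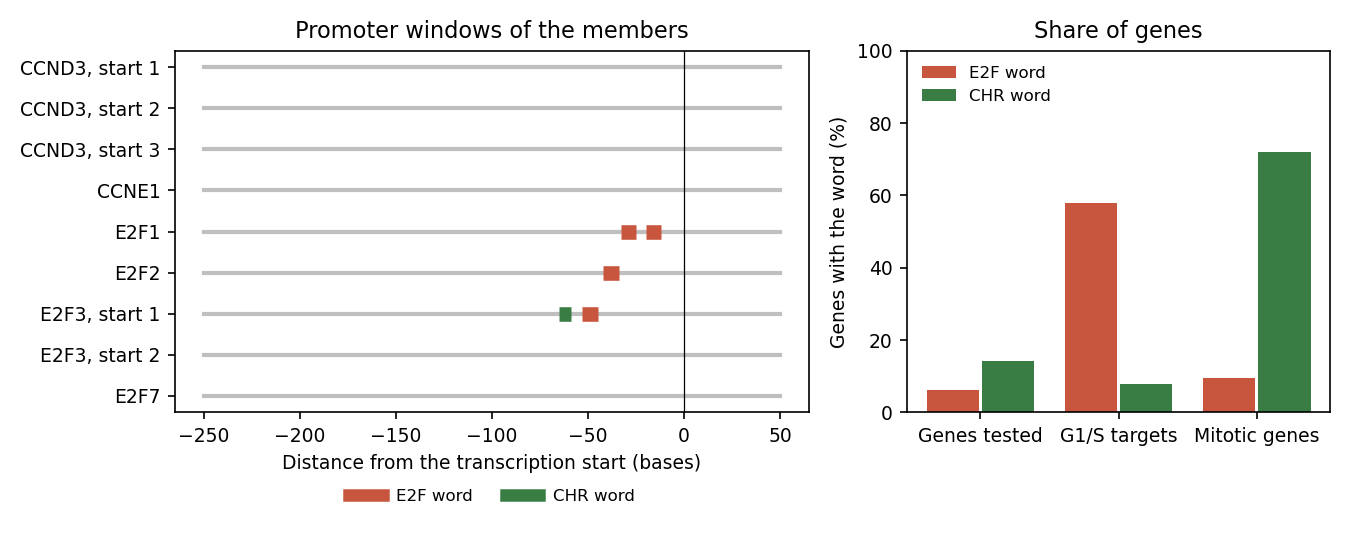
Left, position of E2F words and of the CHR word TTTGAA in the promoter windows of the members, in bases from the transcription start; numbered starts are alternative promoters of a gene. Right, percent of genes whose promoter window holds each word; the E2F word is in 57.9% of the G1/S targets and the CHR word in 71.9% of the mitotic genes.

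RBFOX1 and GFP cells were then compared with edgeR's quasi-likelihood test over the 20536 genes with at least 10 counts in all. Of the 10 members, 9 could be tested, 5 were higher in RBFOX1 cells (CCNE1, CCNE2, E2F1, E2F2 and E2F8), 3 were lower (CCND1, E2F3 and E2F7), and CCND3 did not pass an adjusted p of 0.05. Over all genes tested, 46.6% were called, 23.7% as higher and 22.9% as lower. With a log2 ratio of at least 1 in size as well, 3 members were higher (E2F1, E2F2 and E2F8) against 8.23% of all genes, and 1 was lower (E2F7) against 4.48%. In each of the 8 members called, the libraries of the groups were fully separate, with 5 members above and 3 below GFP. The same separation was seen in 53.4% of all genes tested, 26.9% above and 26.5% below. The members did not move in 1 direction, and within the D cyclins, the activators and the atypical factors, members differed in direction or in whether they passed the test. In bulk RNA, a larger share of cells in a given cell cycle phase and more RNA per cell cannot be told apart.

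**Figure D2:**
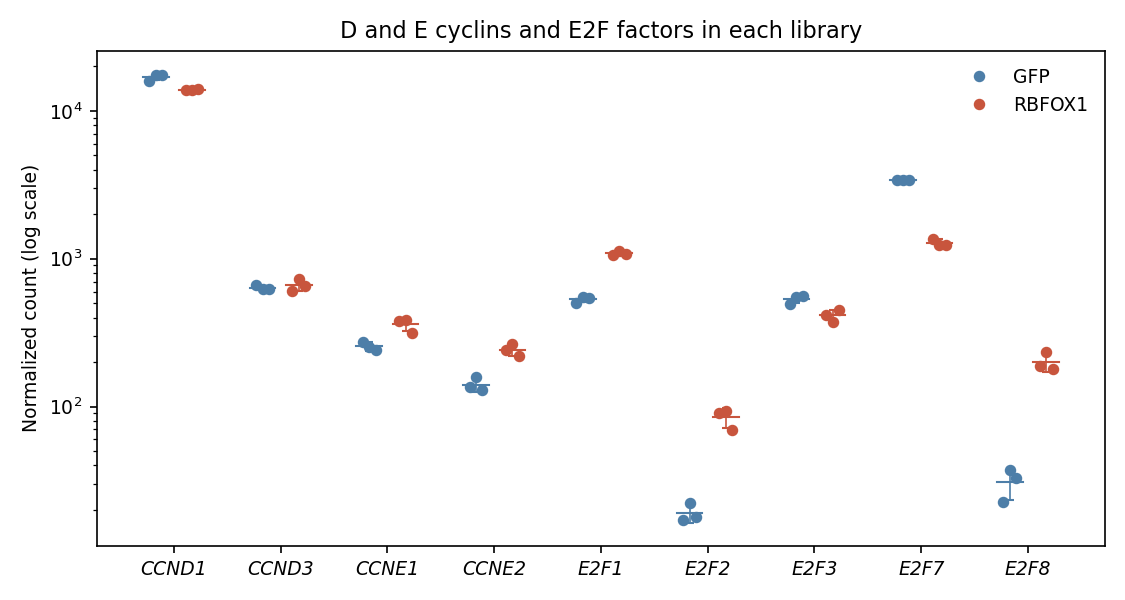
Normalized counts of the 9 tested members in each library on a log scale; points are libraries, lines are group means and bars are the SD (n = 3). GFP and RBFOX1 libraries are separate for every gene shown apart from CCND3; E2F8 moved from 30.8 to 201 and E2F7 from 3414 to 1280 normalized counts.

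Among the D cyclins, CCND1 was the abundant gene, and it was modestly lower in RBFOX1 cells. CCND1 (ENSG00000110092, chromosome 11 from 69641156 to 69654474 on GRCh38) encodes cyclin D1, which couples growth factor signals to CDK4 and CDK6. It had 15995, 17554 and 17619 normalized counts in GFP and 13758, 13788 and 14069 in RBFOX1 libraries. Every RBFOX1 library was below every GFP library. The log2 ratio of RBFOX1 to GFP was -0.30 ± 0.0494 (SE), at an adjusted p of 4.30e-05, and the gene stood at percentile 99.6 of the genes tested by length-scaled level in GFP cells and at 99.4 in RBFOX1 cells.
CCND2 (ENSG00000118971, chromosome 12 from 4269771 to 4305353), a paralog that is expressed in many neural progenitors, had 1 count in GFP replicate 3, 1 count in RBFOX1 replicate 2 and none elsewhere. It lay under the level of 3 counts that a count of 0 allows, which is 1.82 to 5.44 normalized counts depending on the library, so no fold is given. Such limits cover counting error only. CCND3 (ENSG00000112576, chromosome 6 from 41934934 to 42050357), the remaining D cyclin, had 660, 627 and 619 normalized counts in GFP and 604, 724 and 655 in RBFOX1 libraries. These ranges overlapped. Its log2 ratio of RBFOX1 to GFP was 0.060 ± 0.0707 (SE), at an adjusted p of 0.528, and its sign changed without RBFOX1 replicate 2.

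The E cyclins moved the other way. CCNE1 (ENSG00000105173, chromosome 19 from 29811991 to 29824312) encodes cyclin E1, which activates CDK2 at the G1/S transition. It had 273, 252 and 240 normalized counts in GFP and 379, 383 and 317 in RBFOX1 libraries, and the lowest RBFOX1 library was above the highest GFP library. The log2 ratio of RBFOX1 to GFP was 0.47 ± 0.0911 (SE), at an adjusted p of 0.000214. CCNE2 (ENSG00000175305, chromosome 8), which encodes its paralog cyclin E2, had 135, 158 and 129 normalized counts in GFP and 239, 264 and 220 in RBFOX1 libraries. It rose by 0.79 ± 0.106 (SE) on the log2 scale, at an adjusted p of 3.58e-06, again with no overlap between the groups.

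Within the activators, E2F1 and E2F2 were higher and E2F3 was lower. E2F1 (ENSG00000101412, chromosome 20 from 33675477 to 33686385), the founding member of the family, had 504, 550 and 543 normalized counts in GFP and 1057, 1129 and 1084 in RBFOX1 libraries. Every RBFOX1 library was above every GFP library, with a log2 ratio of 1.04 ± 0.0621 (SE) at an adjusted p of 2.61e-11. E2F2 (ENSG00000007968, chromosome 1 from 23506438 to 23531233), an activator expressed mostly in cycling cells, was scarce in GFP cells with 28, 19 and 17 counts, or 17.0, 22.2 and 17.9 normalized counts. In RBFOX1 cells it had 50, 84 and 76 counts, or 90.7, 93.3 and 69.4 normalized counts. The log2 ratio of 2.15 ± 0.199 (SE) at an adjusted p of 1.94e-08 therefore rests on few counts in GFP cells, although every RBFOX1 library was above every GFP library.
E2F3 (ENSG00000112242, chromosome 6 from 20401879 to 20493714), whose alternative promoters give the E2F3a and E2F3b forms, had 497, 552 and 559 normalized counts in GFP and 419, 375 and 449 in RBFOX1 libraries. In normalized counts every RBFOX1 library was below every GFP library, with a log2 ratio of -0.36 ± 0.0798 (SE) at an adjusted p of 0.000826, and counts per gene do not separate the forms. E2F1 and E2F3 had close counts in GFP cells, at 532 ± 24.4 and 536 ± 34.1 (mean ± SD of 3 libraries). In RBFOX1 cells E2F1 had 1090 ± 36 and E2F3 415 ± 37 (mean ± SD of 3 libraries). These counts are not corrected for length, and the annotated exons cover 2690 bases in E2F1 and 5190 in E2F3. On the length-scaled level used below (TPM), E2F1 was already above E2F3 in GFP cells, at 43.0 against 22.5. The overlapping lncRNA E2F3-IT1 and the pseudogene E2F3P2 had at most 6 counts a library.

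The atypical factors gave the widest divergence. E2F7 (ENSG00000165891, chromosome 12 from 77021248 to 77065569), a repressor that is a target of p53 as well as of E2F, had 3403, 3409 and 3429 normalized counts in GFP and 1368, 1231 and 1240 in RBFOX1 libraries. The GFP libraries were close to each other and all above the RBFOX1 libraries. E2F7 was 2.68-fold lower in RBFOX1 cells, a log2 ratio of -1.42 ± 0.0525 (SE) at an adjusted p of 1.81e-14. E2F8 (ENSG00000129173, chromosome 11 from 19224063 to 19241620), the closest relative of E2F7 and a repressor of overlapping targets, went from 37, 32 and 31 counts in GFP to 103, 212 and 198 counts in RBFOX1 libraries. In normalized counts these were 22.5, 37.4 and 32.7 against 187, 235 and 181, with the lowest RBFOX1 library well above the highest GFP library. E2F8 was 6.86-fold higher, with a log2 ratio of 2.78 ± 0.169 (SE) at an adjusted p of 3.60e-11, the largest rise among the members. The ratio of E2F7 to E2F8 counts within a library, which needs no scaling between libraries, was 152, 91.2 and 105 in GFP and 7.32, 5.23 and 6.86 in RBFOX1 libraries.

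The make-up of each family was next compared on a length-scaled level, as TPM, a level corrected for the exon length of each gene and for the library, since counts of genes of unequal length cannot be added. CCND1 made up 97.0 ± 0.262% of the D cyclin level in GFP cells and 96.2 ± 0.339% in RBFOX1 cells (mean ± SD of 3 libraries), and CCND3 the remainder. CCNE1 made up 76.4 ± 2.13% and 72.7 ± 1.05% of the E cyclins. Among the activators, E2F1 went from 65.0 ± 0.492% to 80.9 ± 1.30%, E2F2 from 1.14 ± 0.130% to 3.09 ± 0.485%, and E2F3 went from 33.9 ± 0.518% down to 16.0 ± 1.58%. E2F7 supplied 98.6 ± 0.330% of the atypical factors in GFP cells and 80.7 ± 2.84% in RBFOX1 cells. None of these shares overlapped between the groups, but with 3 libraries against 3 an exact two-sided permutation test cannot go below p = 0.1, and none is reported for sums over the members.
Summed over genes, atypical factors exceeded activators in every GFP library, by a ratio of 1.91, 1.75 and 1.77, and lay below them in every RBFOX1 library, at 0.535, 0.496 and 0.480. The order of the families was thus inverted, and this ratio too is free of scaling between libraries. Activators went from 66.2 ± 6.89 to 126 ± 1.42 TPM and E cyclins from 29.4 ± 1.04 to 50.6 ± 4.87 TPM, while atypical factors went from 119 ± 7.28 down to 63.5 ± 3.01 TPM (mean ± SD of 3 libraries). For the D cyclins and for E2F3 the comparison depended on the scaling. E2F3 had 19.5, 23.5 and 24.4 TPM in GFP and 20.5, 18.1 and 21.8 TPM in RBFOX1 libraries, which overlapped, unlike its normalized counts. CCND1 also overlapped in TPM, with 684, 814 and 838 in GFP and 733, 723 and 744 in RBFOX1 libraries, whereas CCND3 did not, with 23.3, 24.0 and 24.3 against 26.6, 31.4 and 28.6 TPM. Summed, the D cyclins had 802 ± 83.6 TPM in GFP and 762 ± 9.08 TPM in RBFOX1 cells with overlapping libraries, but 3693 ± 189 and 3028 ± 37.4 TMM-normalized counts per kilobase (mean ± SD of 3 libraries) without overlap. The overlap in TPM was due to GFP replicate 1 alone, with 707 TPM, whereas the other GFP libraries had 838 and 862 TPM against 760, 755 and 772 in the RBFOX1 libraries. The short RNA gene RN7SL2 took 22.4% of all TPM in GFP and 14.4% in RBFOX1 cells, and TPM placed the median gene 0.22 higher in RBFOX1 cells on the log2 scale than the TMM scaling did. In GFP replicate 1 the share of RN7SL2 was 25.0%, against 21.6% and 20.5% in the other GFP libraries.

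**Figure D3:**
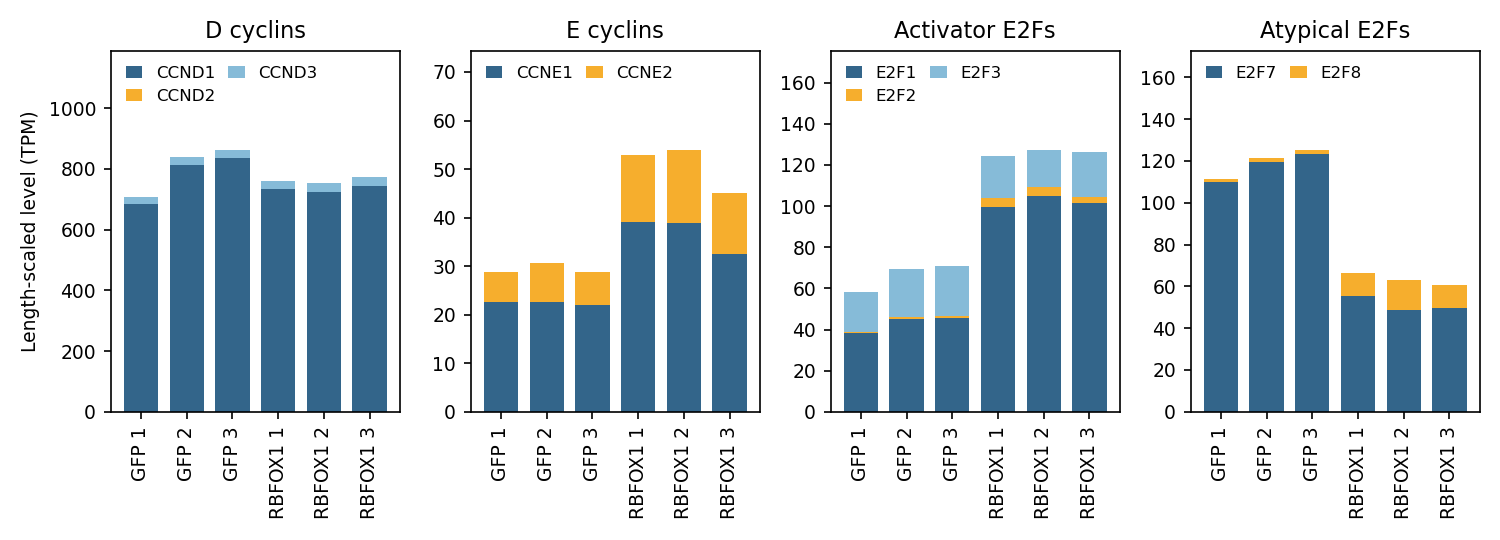
Length-scaled level of each member in every library, in TPM, stacked by family (CCND2 is too low to be seen). Activator E2Fs went from 58.3 to 70.8 TPM in GFP libraries to 124 to 127 in RBFOX1 libraries while atypical E2Fs moved from 111 to 125 down to 60.6 to 66.6.

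Ordered by length-scaled level, GFP cells had CCND1 (778 TPM), E2F7 (118), E2F1 (43.0), CCND3 (23.9), E2F3 (22.5), CCNE1 (22.4), CCNE2 (6.93), E2F8 (1.63), E2F2 (0.757) and CCND2 (0.00995). Neighbours in this order were separate in all libraries apart from E2F3, whose range overlapped those of CCND3 and of CCNE1. In RBFOX1 cells the order was CCND1 (734 TPM), E2F1 (102), E2F7 (51.2), CCNE1 (36.8), CCND3 (28.9), E2F3 (20.1), CCNE2 (13.8), E2F8 (12.2), E2F2 (3.89) and CCND2 (0.0116). Here CCNE2 and E2F8 overlapped and the other neighbours did not. E2F1 and E2F7 thus exchanged places, and E2F8 moved from percentile 29.7 to 57.0 of the genes tested. The place of CCND3 depends on the length used, since its exon union is 5761 bases and its canonical transcript 2026 bases, on which it reached 44.4 TPM in GFP cells against 28.1 for E2F1.

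The other genes of the pathway were described from lists of 30 partners and regulators, 44 G1/S targets of E2F and 38 mitotic genes. Over all genes tested, 23.7% were called higher and 22.9% lower. Of the partners, 28 could be tested, of which 15 (53.6%) were higher and 5 (17.9%) lower. Their median log2 fold change was 0.20, against 0.0051 for all genes tested. The kinase genes are given first. CDK6 (log2 ratio 0.67 ± 0.0511, adjusted p 1.23e-09) and CDK2 (0.62 ± 0.0648, adjusted p 1.09e-07) were higher, and CDK4 had a log2 ratio of -0.11 ± 0.0475 (SE) at an adjusted p of 0.0544. TFDP1, which encodes the main DP partner of the E2Fs, was higher with a log2 ratio of 1.12 ± 0.0490 (SE) at an adjusted p of 2.32e-13, whereas its paralog TFDP2 had 0.024 (adjusted p = 0.746).
Among the pocket proteins, RB1 was slightly higher (log2 fold change of 0.18, adjusted p = 0.0117), RBL1 (p107) was lower (-0.32, adjusted p = 0.00114) and RBL2 (p130) had a log2 fold change of -0.078 (adjusted p = 0.239). The repressive family members E2F4, which works with RBL1 and RBL2, and E2F6, which works without them, were lower by log2 fold changes of -0.21 (adjusted p = 0.00955) and -0.61 (adjusted p = 2.94e-06). In TPM, E2F4 was not lower, with means of 66.9 in GFP and 67.5 in RBFOX1 libraries, whereas E2F6 went from 21.9 to 16.6. On that scale RBL1 had means of 16.7 in GFP and 15.7 in RBFOX1 libraries. RBL2 (37.5 and 41.2 TPM) and CDK4 (203 and 219 TPM) changed sign, with the higher mean in RBFOX1 libraries. The largest rises were those of MYBL2, a partner of the MuvB complex at late cell cycle genes (2.31), and of the CDK inhibitor genes CDKN2C (2.13) and CDKN1B (1.66). The largest falls were those of CDKN1A, the p21 gene and a p53 target (-0.76), E2F6 and the MuvB subunit LIN52 (-0.42). CDKN2A and CDKN2B had no count in any library.
Of the 44 G1/S targets, 41 (93.2%) were higher and 1 (2.27%) was lower, and their median log2 fold change was 0.76. RRM2 (log2 ratio 2.21) and TK1 (269 against 1065 normalized counts in GFP and RBFOX1 cells), which serve nucleotide synthesis, and CDCA7 (1.62) rose most. PCNA, the clamp of replicative polymerases, was the gene that was lower (-0.19, adjusted p = 0.00611). In TPM, PCNA was not lower, with means of 291 in GFP and 297 in RBFOX1 libraries. All 38 mitotic genes were higher, with a median of 1.41 and a range from 0.73 to 2.05, led by MKI67 (2.05), BIRC5 (1.98) and CDC20 (1.95). The log2 fold changes of E2F7, E2F3 and CCND1 were below those of every gene on both lists, and that of E2F8 was above them. That of CCNE1 was below every mitotic gene. E2F2 (2.15 ± 0.199, SE) was above every mitotic gene, though close to MKI67 for its SE, and below RRM2 of the G1/S targets. These differences were not tested, and the lists were written with earlier results of these libraries known.

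**Figure D4:**
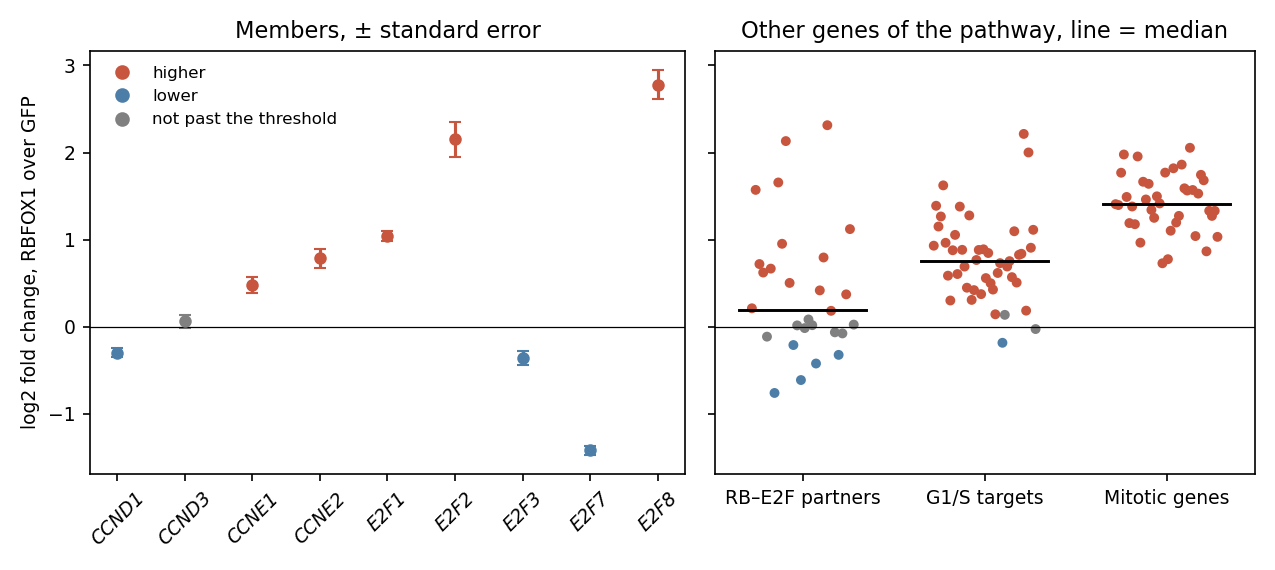
Log2 fold change of RBFOX1 over GFP cells for the 9 tested members (left, ± standard error) and for the tested genes of the 3 other lists (right, 1 point a gene, black line at the median). Members spread from -1.42 to 2.78, whereas the mitotic genes lie between 0.73 and 2.05.

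The same promoter words were counted in the other lists. Of the 38 G1/S targets with a promoter window, 22 (57.9%) held an E2F word and 3 (7.89%) held TTTGAA, the core of the CHR element that the MuvB complex binds at late cell cycle genes. Of the 32 mitotic genes with a window, 3 (9.38%) held an E2F word and 23 (71.9%) held TTTGAA. Among all genes tested that had a window, 6.32% held an E2F word and 14.1% held TTTGAA. Of the 27 partners with a window, 4 (14.8%) held an E2F word and 8 (29.6%) held TTTGAA. All 3 activator genes held an E2F word, and E2F1 and E2F2 were higher whereas E2F3, with a TTTGAA that also began 65 bases before its first start, was lower. Whether these words bear on the changes was not tested.

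Since RBFOX1 binds RNA, the word TGCATG was looked up in the 3′ UTR of the canonical transcript of each member (GENCODE release 44, GRCh38). E2F1 and E2F7 held 3 each, CCND1 and E2F3 2 each, CCND2 and CCND3 1 each, and CCNE1, CCNE2, E2F2 and E2F8 none. Genes with the word therefore included E2F1, which rose, and CCND1, E2F3 and E2F7, which were lower, while the called members without it were all higher, a split that was not tested. Among 3′ UTRs of tested genes cut to the same length, the word occurred in 32.1% for E2F1 (1255 bases), 56.7% for E2F7 (2764 bases), 61.8% for CCND1 (3192 bases), 62.3% for E2F3 (3284 bases), 25.9% for CCND3 (988 bases) and 80.3% for CCND2 (5344 bases). For the members without it these shares were 64.2% for E2F2 (3442 bases), 34.9% for CCNE2 (1408 bases), 16.4% for E2F8 (595 bases) and 15.0% for CCNE1 (535 bases).
The sites of E2F1 and E2F7, which have the most and moved in opposite directions, and of the abundant CCND1 are printed with the word in capitals. The 3 of E2F1 lie on the minus strand of chromosome 20 at 33676517 to 33676522, 33676457 to 33676462 and 33676378 to 33676383, and start 210, 270 and 349 bases past the stop codon.
E2F1 site 1: gtggtgtgtatgTGCATGcagcctacaccc
E2F1 site 2: agcatgtgtgtgTGCATGtaccggggaatg
E2F1 site 3: tccacatgtgtgTGCATGagtccatgtgtg
The 3 of E2F7 lie on the minus strand of chromosome 12 at 77023807 to 77023812, 77022272 to 77022277 and 77022177 to 77022182, and start 203, 1738 and 1833 bases past the stop codon.
E2F7 site 1: gagttccgactcTGCATGgtgtcacagtga
E2F7 site 2: accatcaacaatTGCATGgttaaatgaccc
E2F7 site 3: gtgcagggtataTGCATGttaattctacca
The pair in CCND1 lies on the plus strand of chromosome 11 at 69651855 to 69651860 and 69651975 to 69651980.
CCND1 site 1: tgcttgctcataTGCATGtagtcactttat
CCND1 site 2: agcgtgcccgtgTGCATGtcctttgcgcct
A match of letters does not show binding, and gene counts do not separate synthesis from decay of an mRNA.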

How the data were processed

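RNA from A172 cells with a GFP or an RBFOX1 lentivirus was sequenced on an Illumina NovaSeq, with 3 libraries of each. The authors aligned reads to GRCh38 with HISAT2, counted them per Ensembl gene with HTSeq-count (intersection-strict, stranded) and deposited raw counts. Their deposited DESeq2 comparison (means, log2 fold changes, p-values) was not used. Classes that name no gene held 38.1 to 48.0% of read pairs in a library and were left out. Counts were TMM-normalized and tested with edgeR 4.0.16 (R 4.3.3), with the group (GFP or RBFOX1) in the model and no covariate. Genes needed 10 or more counts in total, and p-values, all two-sided, were adjusted by the Benjamini-Hochberg method over the genes kept. Standard errors are the absolute log2 fold change divided by the root of the quasi-likelihood F. Normalized counts are scaled to the mean library. TPM used GENCODE 44 exon unions, a later annotation than that of the counts, to which 98.1% of identifiers matched. Named were the 10 members, 13 set partners, and the 3 largest rises and falls of each list at a mean of at least 50 normalized counts. Members and lists were chosen with earlier results of these data known. The procedure was tested on simulated data.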

Additional observations from a re-analysis of the deposited data

How the results depend on the processing

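The 8 calls among the members kept their direction and their side of the threshold under other scalings (RLE, upper quartile, library totals), other filters on low counts, DESeq2 1.42.0, limma-voom (limma 3.58.1), an adjusted p under 0.01, a replicate block and the omission of each library in turn, GFP replicate 1 included. Over these, the log2 fold change lay between -1.46 and -1.37 for E2F7, 2.53 and 2.92 for E2F8, -0.34 and -0.25 for CCND1 and -0.43 and -0.29 for E2F3. CCND3 had -0.0049 without RBFOX1 replicate 2 (adjusted p = 0.965, and from 0.188 to 0.965 over the alternatives) and up to 0.12 when RBFOX1 replicate 1 was left out. A further limit of 1 on the size of the log2 ratio lowered the counts, by construction of the rule. It left 3 of 9 tested members higher and 1 lower. Of the 28 tested partners it left 5 higher and 0 lower, and of the 44 G1/S targets 11 higher and 0 lower. Of the 38 mitotic genes, 34 stayed higher. Over all genes tested, 8.23% were higher and 4.48% lower at this limit. Without it, the partners called lower numbered 4 to 6 over the alternatives. TMM-scaled counts per kilobase in place of TPM gave RBFOX1 minus GFP log2 differences of -0.28 for D cyclins, 0.57 for E cyclins, 0.72 for activator and -1.13 for atypical E2Fs, against -0.068, 0.78, 0.93 and -0.91 in TPM. The D cyclin difference in TPM was -0.16 without GFP replicate 1, -0.034 without GFP replicate 2 and -0.014 without GFP replicate 3. On canonical transcript lengths the CCND1 share of D cyclins differed by -1.81 percentage points in place of -0.79. Libraries of the same number did not deviate together (Pearson's r of -0.17, 0.034 and -0.055 over 12012 genes, which are not independent replicates). Only RBFOX1 replicate 2 correlated best with the library of its own number. The replicate block left 5 members higher and 3 lower. Counts of E2F2 and E2F8 in GFP cells (17 to 37 a library) limit the precision of their folds, and CCND2 could not be measured.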
